A study of Mus musculus with 12 samples.

Results

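Mouse bone marrow-derived macrophages that were kept at low oxygen and given lactate at the same time are compared here with macrophages that received neither. The comparison uses 6 of the study's 12 RNA-seq libraries, chosen by their incubation and treatment labels: the 3 hypoxia-lactate libraries (1% oxygen, 25 mM NaLactate) and the 3 normoxia-NaCl libraries (normoxia, 25 mM NaCl). All 12 libraries came from primary cultures at day 7, grown from C57BL/6 bone marrow, and no genetic change is named. The remaining groups, hypoxia-NaCl (1% oxygen, 25 mM NaCl) and normoxia-lactate (normoxia, 25 mM NaLactate), also hold 3 libraries each and entered the same fit. Whether replicate libraries stem from different animals or culture dishes is not labelled. The p-values thus reflect only how far these libraries scattered, which may be technical. How long the cells were treated is not stated in the labels.

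Cells sense oxygen through prolyl hydroxylases, which mark the alpha subunits of the hypoxia-inducible factors (HIF) for destruction while oxygen is present. When oxygen is scarce these subunits persist, pair with ARNT and bind DNA at short elements with the core ACGTG, next to genes of glucose uptake, glycolysis, pH control and blood vessel growth. Lactate is the end product of glycolysis in such cells, is carried across membranes with a proton, and is known to act on macrophages in tumours, where it can accumulate together with low oxygen.

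The libraries held 22705978 to 28150397 reads in genes for hypoxia-lactate and 25328963 to 49438500 for normoxia-NaCl. Library hypoxia-lactate 3 stood apart: 11437 genes reached 10 reads in it, while the remaining 11 libraries had 13198 to 14767 such genes, and its mitochondrial share of reads was 0.486%, with 2.036% to 4.748% elsewhere. Levels are in CPM, reads scaled to library sizes that were adjusted by a factor per library (TMM). That factor was 0.742 in hypoxia-lactate 3 and 0.864 in normoxia-NaCl 1. CPM over all genes therefore summed to 1347280 in hypoxia-lactate 3 and to 947578 in the lowest hypoxia-lactate library, with 907597 to 1157460 in normoxia-NaCl. Of 8669 genes averaging above 10 CPM elsewhere, 132 lay over 10-fold lower in hypoxia-lactate 3 and 289 over 4-fold higher. Normoxia-NaCl 1 held the highest mitochondrial share, 4.748%. Leaving out hypoxia-lactate 3 narrowed the fitted coefficient of variation between replicates to 24.31%, against 38.25% with all 12 libraries. Values below come from the fit of all 12 libraries unless they are said to be without hypoxia-lactate 3, and the value without it is given for the main genes and for each named gene whose fold it moved by over 1.5 times while called. Levels are listed for replicates 1, 2 and 3 of a group in that order.

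The cells carried macrophage markers in both conditions. Transcripts of the 20 listed macrophage genes summed to 45771.6 to 48742.1 CPM in hypoxia-lactate libraries and 37021.1 to 42272.7 CPM in normoxia-NaCl libraries. Csf1r, the receptor of the growth factor that sustains macrophages, averaged 8119 ± 1959 CPM in hypoxia-lactate and 6083 ± 1863 CPM in normoxia-NaCl (SD, n = 3 each; edgeR adjusted p = 0.40). Markers of other cell types were low in both groups: the summed CPM of 10 neutrophil markers was 2.92 to 35.5 against 2.80 to 52.5, of 8 T and NK cell markers 5.33 to 9.53 against 3.01 to 5.89, of 6 B cell markers 1.96 to 2.70 against 1.15 to 2.88, and of 8 dendritic cell markers 0 to 4.40 against 1.56 to 4.29. The 8 fibroblast markers summed to 51.9 to 104 CPM against 39.4 to 101, and the 8 osteoclast markers to 199 to 319 CPM against 222 to 451. Mast cell and basophil markers, 6 genes, summed to 2.93 to 9.08 CPM against 1.84 to 6.24. Alas2, Nkg7, Gzmb, Ms4a1, Ms4a2 and Xcr1 were at 0 in all 6 libraries. Among these markers of other cells, Klrb1c alone passed the test in the fit of 12 libraries, with 2.68, 3.53 and 7.18 CPM in hypoxia-lactate against 1.01, 0.658 and 0.489 CPM in normoxia-NaCl. Its call was lost (adjusted p of 0.054 to 0.125) without normoxia-NaCl 1, 2 or 3, hypoxia-NaCl 1, 2 or 3, or normoxia-lactate 1 or 2.

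Low oxygen and lactate together changed 235 genes, 171 upward and 64 downward. These were 1.61% of the 14616 genes tested with edgeR's quasi-likelihood test, Benjamini-Hochberg adjusted p under 0.05, with 1.17% called higher and 0.438% called lower. The change was at least 2-fold for 201 of them. Hypoxia-lactate and normoxia-NaCl libraries did not overlap for any of the 235, whereas over all tested genes 9.39% were higher and 11.2% lower without overlap. The 20 largest rises among called genes of at least 5 CPM included Egln3, Ankrd37, Ak4, Hspa1a, Hspa1b, Mmp13, Slc16a3, Fxyd2 and Vegfa, and the 20 largest falls included Plau, Mrc1, Cd33 and Lgals9. In bulk RNA, fewer cells of a type and less RNA per cell cannot be told apart. Without hypoxia-lactate 3, 1035 of 15088 tested genes passed (6.86%), 543 higher (3.6%) and 492 lower (3.26%), and all 235 genes were among them with their direction kept. With upper-quartile scaling the split was 118 higher and 79 lower, or 59.9% higher against 72.8% in the fit above, and the median log2 fold change of all genes moved to -0.13 from -0.011.

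The number of calls depended on single libraries. In the 12 fits that left out 1 library each, between 67 genes (without normoxia-NaCl 3) and 1035 genes (without hypoxia-lactate 3) passed. The fits without normoxia-NaCl 1 and 2 called 78 and 90 genes, and the fit without hypoxia-lactate 2 called 690. The other 2 groups enter this comparison only through the shared spread, scaling and gene filter. Leaving out 1 of their libraries gave 128, 130 and 163 genes for hypoxia-NaCl 1, 2 and 3. For normoxia-lactate 1, 2 and 3 it gave 125, 142 and 144 genes. A set of 52 genes, 39 higher and 13 lower, passed in all 12 of these fits, and the descriptions below lead with them. A fit of the 6 libraries alone, without the spread information of the other 6, called 6 genes, all higher: P4ha1, Egln3, Ankrd37, Fxyd2, Hspa1a and Hspa1b. When hypoxia-lactate 3 was also left out, this fit called 177 genes (137 higher and 40 lower), of which 112 were among the 235.

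**Figure D1:**
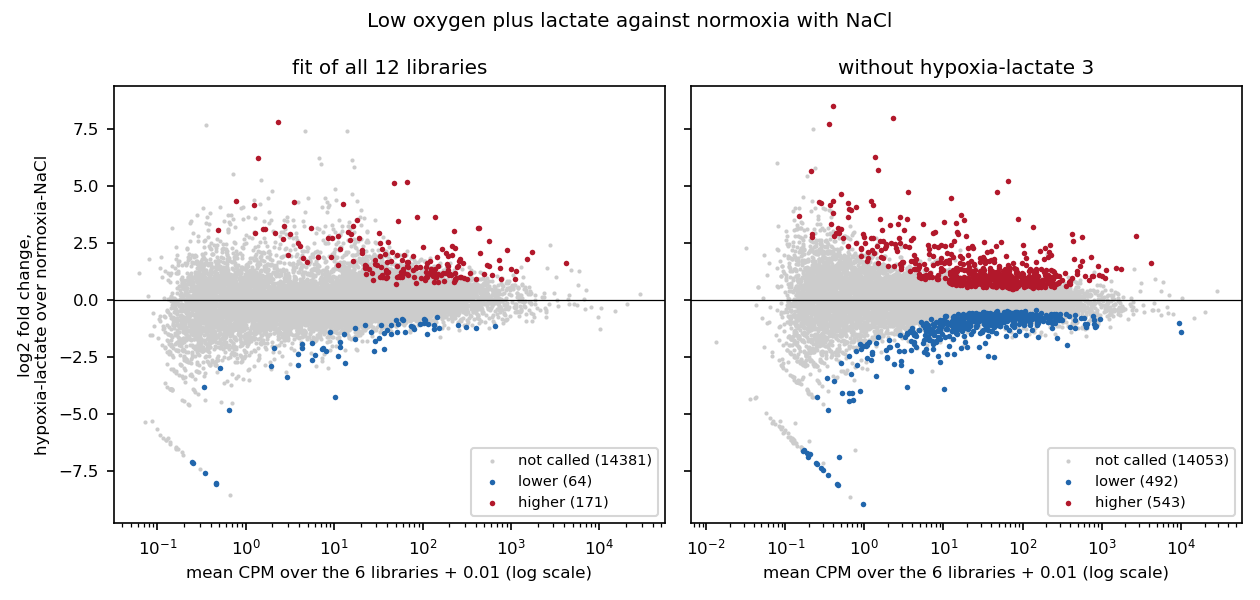
Mean level (x axis, CPM, log scale) against log2 fold change of hypoxia-lactate over normoxia-NaCl (y axis) for each tested gene, in the fit of all 12 libraries (left) and without hypoxia-lactate 3 (right). Coloured points passed the adjusted p of 0.05: 171 higher and 64 lower on the left, 543 higher and 492 lower on the right.

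Egln3, which encodes one of the prolyl hydroxylases that mark HIF, had the smallest adjusted p of all genes tested. Its level was 127, 142 and 118 CPM in hypoxia-lactate, against 3.15, 4.42 and 3.40 CPM in normoxia-NaCl (log2 fold change 5.14 ± 0.26 SE, edgeR adjusted p = 8.3e-07; 5.20 ± 0.22 without hypoxia-lactate 3). Ankrd37, an ankyrin repeat gene known as a HIF target, was at 82.5, 59.5 and 135 CPM in hypoxia-lactate, against 2.74, 2.69 and 2.58 CPM in normoxia-NaCl (log2 5.11 ± 0.31, edgeR adjusted p = 4.4e-06; 4.74 ± 0.18 without hypoxia-lactate 3). In both genes the lowest hypoxia-lactate library lay more than 10-fold above the highest normoxia-NaCl library. Of the other HIF subunits and oxygen sensors, 7 were tested and none was called with all libraries. Hif1a, the oxygen-regulated subunit itself, had 58.9, 61.0 and 35.4 CPM in hypoxia-lactate and 40.9, 40.1 and 33.6 CPM in normoxia-NaCl, so the groups overlapped (log2 0.44 ± 0.22, edgeR adjusted p = 0.28). Without hypoxia-lactate 3 its difference passed the test (log2 0.65 ± 0.15, edgeR adjusted p = 0.025).

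The upstream sequence of 5 of the genes that rose in all leave-one-out fits is shown because each holds the HIF core element close to its start. Other genes of that set lack it in some or all promoters. Pdk1 held no core in its 2 promoters, and for Ak4 and Vegfa only the last listed promoter held it. Windows run from 250 bases before to 50 bases after the transcription start in RefSeq (GRCm38.p6), on the strand of the gene, and capitals mark ACGTG or its reverse complement CACGT.

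Egln3, chr12:54203825-54204124, minus strand: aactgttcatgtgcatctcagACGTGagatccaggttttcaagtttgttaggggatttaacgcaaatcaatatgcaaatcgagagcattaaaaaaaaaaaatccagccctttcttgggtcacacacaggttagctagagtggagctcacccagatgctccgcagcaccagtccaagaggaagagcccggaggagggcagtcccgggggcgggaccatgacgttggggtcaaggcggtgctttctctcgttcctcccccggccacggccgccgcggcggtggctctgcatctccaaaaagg

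Ankrd37, chr8:45999801-46000100, minus strand: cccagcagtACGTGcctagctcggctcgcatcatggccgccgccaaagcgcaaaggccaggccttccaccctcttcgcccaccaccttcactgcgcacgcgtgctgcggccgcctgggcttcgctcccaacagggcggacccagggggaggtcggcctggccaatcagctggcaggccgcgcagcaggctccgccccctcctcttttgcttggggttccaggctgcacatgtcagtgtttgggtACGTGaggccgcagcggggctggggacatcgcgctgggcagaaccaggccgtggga

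Slc16a3, chr11:120948817-120949116, plus strand: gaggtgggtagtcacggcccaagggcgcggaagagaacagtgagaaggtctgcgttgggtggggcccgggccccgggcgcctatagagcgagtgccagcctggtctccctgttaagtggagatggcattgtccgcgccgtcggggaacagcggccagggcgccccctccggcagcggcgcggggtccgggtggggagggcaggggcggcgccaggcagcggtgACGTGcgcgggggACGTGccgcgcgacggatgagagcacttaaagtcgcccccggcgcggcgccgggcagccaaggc

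P4ha1, chr10:59323046-59323345, plus strand: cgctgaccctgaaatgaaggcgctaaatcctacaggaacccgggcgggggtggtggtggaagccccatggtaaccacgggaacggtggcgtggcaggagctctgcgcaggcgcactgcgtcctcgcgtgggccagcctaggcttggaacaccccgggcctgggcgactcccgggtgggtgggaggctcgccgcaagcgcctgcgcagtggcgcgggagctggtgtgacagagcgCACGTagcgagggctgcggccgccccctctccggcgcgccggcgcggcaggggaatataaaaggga

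Slc2a1, chr4:119108495-119108794, plus strand: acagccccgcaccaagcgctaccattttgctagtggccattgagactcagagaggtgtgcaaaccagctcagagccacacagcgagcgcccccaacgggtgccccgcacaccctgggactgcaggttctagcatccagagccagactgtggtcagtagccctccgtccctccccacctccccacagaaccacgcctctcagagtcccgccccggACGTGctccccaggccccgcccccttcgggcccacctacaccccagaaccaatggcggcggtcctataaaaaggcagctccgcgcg

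The core starts 36 bases before the transcription start in Slc2a1, at 27 and 14 bases before it in Slc16a3, and 241 and 6 bases before it in Ankrd37. In P4ha1 the reverse complement starts 16 bases before the start, and in Egln3 the core starts 229 bases before it. ACGTG is also part of the E-box CACGTG, so a match is not specific to HIF. Searched on both strands, the core stood in a promoter of 37.8% of the genes called higher (51 of 135 with a promoter in the table), 17.8% of those called lower (8 of 45) and 29.2% of all tested genes (2874 of 9826). Among the genes that rose in all 12 leave-one-out fits it stood in 18 of 32 genes, or 56.2%, and among those that fell in all 12 in 4 of 10 genes, or 40%. A longer search for ACGTGC or GCGTGC found 37.8% of the genes called higher, 17.8% of those called lower and 29.7% of all tested genes. Among genes that rose or fell in all 12 leave-one-out fits it found 46.9% and 20%. A gene with several starts was counted if any of its promoters matched. Counted per promoter, the core shares were 28.9% for genes called higher, 16.7% for those called lower and 25.2% for all tested genes. For the longer search they were 28.4%, 15% and 25.6%. Per promoter, the core share was 45.5% for genes that rose in all 12 leave-one-out fits and 35.3% for those that fell. These shares describe letters in a window, not binding.

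Of 38 listed HIF target genes outside glycolysis 36 were tested, 16 rose and none fell, where 1.17% of all tested genes rose. The list had 32 members with a positive and 4 with a negative log2 fold change, with a median log2 fold change of 1.39 against -0.011 over all tested genes. Without hypoxia-lactate 3, 21 rose and none fell, with a median of 1.08. P4ha1 and P4ha2 encode catalytic subunits of collagen prolyl hydroxylase. P4ha1 was at 259.5, 256 and 301 CPM in hypoxia-lactate against 51.5, 67.1 and 58.9 CPM in normoxia-NaCl (log2 2.20 ± 0.21, edgeR adjusted p = 0.00036). P4ha2 was at 44.0, 62.3 and 99.4 CPM against 11.1, 12.6 and 12.3 CPM (log2 2.52 ± 0.31, edgeR adjusted p = 0.0021; 2.15 ± 0.22 without hypoxia-lactate 3). Both genes were separate between groups, as were all 235 called genes, and hypoxia-lactate 3 was the highest library for both.

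Pdk1, the kinase that shuts down pyruvate dehydrogenase, was at 196, 170.4 and 143 CPM in hypoxia-lactate against 27.2, 43.8 and 33.1 CPM in normoxia-NaCl (log2 2.29 ± 0.24, edgeR adjusted p = 0.00075). Ak4, a mitochondrial adenylate kinase with processed pseudogenes, was at 30.7, 26.4 and 13.9 CPM against 0.777, 1.37 and 1.62 CPM (log2 4.21 ± 0.53, edgeR adjusted p = 0.0021), with hypoxia-lactate 3 the lowest of its group. Ero1l (Ero1a), an oxidase of protein folding, had log2 1.94 ± 0.21 and the histone demethylase gene Kdm3a log2 1.32 ± 0.20, with edgeR adjusted p of 0.00081 and 0.0074. These genes and Narf (log2 1.46 ± 0.18) kept their calls in all 12 leave-one-out fits. Other members of the list missed the threshold when certain libraries were left out. Bnip3, a mitophagy receptor, had 56.6, 49.5 and 67.2 CPM against 17.0, 10.2 and 10.01 CPM (log2 2.22 ± 0.36, edgeR adjusted p = 0.0092) but missed the threshold without normoxia-NaCl 2 or 3 (adjusted p = 0.056 and 0.058). Mif and Stc2 did so too, Stc2 without the same 2 libraries (0.056 and 0.069) and Mif without these or normoxia-lactate 1 (0.051 to 0.104), and Ddit4 without normoxia-NaCl 1 or 3 (0.110 and 0.093). Jmjd6 lost its call without any 1 of the 3 normoxia-NaCl libraries (0.058 to 0.103), Ndrg1 and Nfil3 without any 1 of these, of hypoxia-NaCl or of normoxia-lactate (0.052 to 0.182; Ndrg1 had log2 1.79 with all libraries and 1.02 without hypoxia-lactate 3), and Gys1 without any of those except normoxia-NaCl 1, and without hypoxia-lactate 1 (0.050 to 0.146). Car9, a carbonic anhydrase often used as a hypoxia marker, was at 4.47, 1.84 and 0.712 CPM in hypoxia-lactate against 6.63, 5.53 and 5.98 CPM in normoxia-NaCl and was not called (log2 -1.35 ± 0.54, edgeR adjusted p = 0.18).

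**Figure D2:**
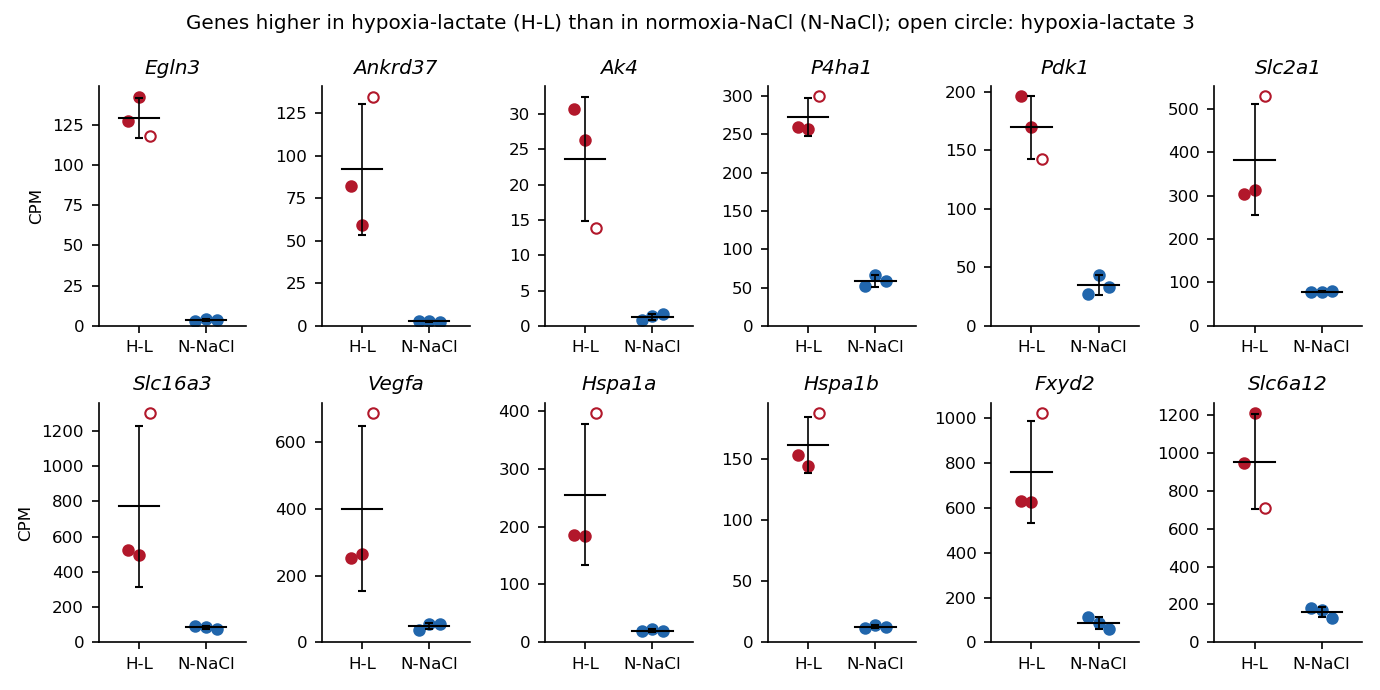
CPM per library (y axis, from 0) of 12 genes that were higher in hypoxia-lactate (red, left) than in normoxia-NaCl (blue, right), with the mean (horizontal bar) and SD (n = 3 each). The open circle is hypoxia-lactate 3, the highest of its group for Slc16a3 (1298 CPM) and the lowest for Ak4 (13.9 CPM). No gene shown overlaps between groups, which holds for all 235 called genes.

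Glucose uptake and glycolysis genes rose at several steps. Of 20 tested genes 9 rose and none fell (median log2 1.31), and without hypoxia-lactate 3 10 rose and 1, the hexokinase gene Hk3, fell (median 0.81). Over all tested genes, 1.17% rose and 0.438% fell with all libraries, and 3.6% and 3.26% without hypoxia-lactate 3. The list counts below stand against the same shares. Slc2a1, the main glucose transporter of most cells, was at 304, 313 and 529 CPM in hypoxia-lactate against 79.1, 77.4 and 79.5 CPM in normoxia-NaCl (log2 2.28 ± 0.26, edgeR adjusted p = 0.0018). Hk2, which phosphorylates glucose, was at 167, 187 and 244 CPM against 74.9, 78.2 and 82.2 CPM (log2 1.34 ± 0.18, edgeR adjusted p = 0.0038). The phosphofructokinase step, a control point of the pathway, was higher through Pfkl (log2 1.89 ± 0.29) and through Pfkfb3 (log2 1.91 ± 0.24), whose product makes the activator of that enzyme.

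Among lower-glycolysis genes, Pgam1, a phosphoglycerate mutase, was at 792, 769 and 815 CPM in hypoxia-lactate against 229, 301 and 309 CPM in normoxia-NaCl (log2 1.5 ± 0.18, edgeR adjusted p = 0.0020). Pgk1, a phosphoglycerate kinase, was at 525, 644 and 987 CPM against 173, 208 and 134 CPM (log2 2.07 ± 0.29, edgeR adjusted p = 0.0040). These 2 genes, Slc2a1, Hk2, Pfkl and Pfkfb3 were called in all 12 leave-one-out fits. Tpi1 (log2 2.19 ± 0.41, and 1.48 ± 0.25 without hypoxia-lactate 3) was called in the full fit but not without any 1 of the normoxia-NaCl libraries (adjusted p of 0.051 to 0.095), and the same held for Pfkp (log2 1.68 ± 0.33, and 1.08 ± 0.19 without hypoxia-lactate 3), also lost without normoxia-lactate 1 (0.054 to 0.133), and Eno1 (log2 2.10 ± 0.42, and 1.36 ± 0.26 without hypoxia-lactate 3), also lost without hypoxia-NaCl 2 or normoxia-lactate 1 (0.051 to 0.110). Gapdh, often used as a constant reference, was at 860.2, 999 and 2432 CPM against 1568, 775 and 574 CPM and was not called (log2 0.56 ± 0.41, edgeR adjusted p = 0.47; -0.06 ± 0.33 without hypoxia-lactate 3). Several of these genes have processed pseudogenes, and the counting of reads that match both is not described, so their levels are uncertain.

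The handling of lactate itself was split. Slc16a3, the transporter that exports lactate from glycolytic cells, was at 521, 494 and 1298 CPM in hypoxia-lactate against 92.5, 88.1 and 77.9 CPM in normoxia-NaCl (log2 3.16 ± 0.39, edgeR adjusted p = 0.0021; 2.56 ± 0.25 without hypoxia-lactate 3). Slc16a1, a transporter used for uptake as well as release, was at 16.2, 13.7 and 5.10 CPM against 13.4, 15.6 and 15.0 CPM and was not called (log2 -0.33 ± 0.35, edgeR adjusted p = 0.63). Ldha, which converts pyruvate to lactate, was at 1833, 1760.2 and 3460.1 CPM against 899, 629 and 538 CPM (log2 1.77 ± 0.30, edgeR adjusted p = 0.012). Ldhb, the isoform associated with lactate oxidation, was at 1.27, 2.51 and 1.48 CPM against 6.31, 7.16 and 7.02 CPM (log2 -1.95 ± 0.38, edgeR adjusted p = 0.025). The Ldha call was lost without normoxia-NaCl 2 or 3 (adjusted p = 0.064 and 0.065), and that of Ldhb without hypoxia-lactate 1, normoxia-NaCl 1, 2 or 3, hypoxia-NaCl 1 or 2, or normoxia-lactate 1 or 2 (0.051 to 0.087). Hcar1, a lactate receptor, was at 0 CPM in all 3 hypoxia-lactate libraries and at 0, 0.0263 and 0 CPM in normoxia-NaCl. Of 8 tested genes of lactate transport and interconversion, 2 rose and 1 fell, with or without hypoxia-lactate 3.

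Signals to blood vessels rose in 3 of 19 tested genes, or 5 without hypoxia-lactate 3, and none fell in either fit. Among all tested genes 1.17% rose, or 3.6% without that library. Vegfa, the main growth factor for endothelium, was at 252, 265 and 687 CPM in hypoxia-lactate against 37.9, 54.2 and 56.4 CPM in normoxia-NaCl (log2 3.02 ± 0.38, edgeR adjusted p = 0.0021; 2.39 ± 0.22 without hypoxia-lactate 3). Every hypoxia-lactate library lay above every normoxia-NaCl library, as for every gene called higher, and the third was more than 2-fold above the other 2. Its receptor gene Flt1 was at 16.4, 11.8 and 29.5 CPM against 3.47, 4.40 and 4.67 CPM (log2 2.20 ± 0.36, edgeR adjusted p = 0.0097), a call that missed the threshold without normoxia-NaCl 1 or 3 (adjusted p = 0.055 and 0.050). The lymphatic growth factor gene Vegfc (log2 2.94 ± 0.64) was called with all libraries and lost without any single library except hypoxia-lactate 2, hypoxia-lactate 3 and hypoxia-NaCl 3 (0.061 to 0.166). Spp1, which encodes osteopontin, varied widely, with 3571, 8425 and 1918 CPM against 771, 1253 and 612 CPM, and passed only without hypoxia-lactate 3 (log2 2.77 ± 0.60, edgeR adjusted p = 0.017).

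Among 22 matrix remodelling genes, 2 rose and 1 fell, or 4 and 1 without hypoxia-lactate 3. All tested genes gave 1.17% and 0.438%, or 3.6% and 3.26% without that library. Ctsk, cathepsin K, a collagen-degrading protease best known from osteoclasts, was at 279, 237 and 549.8 CPM in hypoxia-lactate against 65.1, 57.7 and 88.6 CPM in normoxia-NaCl (log2 2.33 ± 0.32, edgeR adjusted p = 0.0038; 1.87 ± 0.22 without hypoxia-lactate 3). None of the 6 osteoclast markers tested was called, where 1.61% of all tested genes were. The 8 listed markers summed to 199 to 319 CPM in hypoxia-lactate and 222 to 451 CPM in normoxia-NaCl, with Calcr at 0 in all 6 libraries. Whether the Ctsk rise went with an osteoclast-like state was not tested. Mmp13, a collagenase gene, was at 50.5, 50.05 and 189 CPM against 4.52, 10.8 and 10.8 CPM (log2 3.46 ± 0.66, edgeR adjusted p = 0.021; 2.51 ± 0.50 without hypoxia-lactate 3). Plau, the urokinase plasminogen activator gene, was at 0.413, 2.18 and 0.356 CPM against 6.08, 34.9 and 17.2 CPM (log2 -4.28 ± 0.84, edgeR adjusted p = 0.026). Its normoxia-NaCl libraries differed more than 5-fold among themselves, and its log2 fold change was -5.63 without hypoxia-lactate 2 and -3.56 without normoxia-NaCl 2. The Mmp13 call was lost without any 1 normoxia-NaCl library (adjusted p of 0.079 to 0.122) and the Plau call without hypoxia-lactate 1 or normoxia-NaCl 2 or 3 (0.055 to 0.089).

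The Hsp70 family genes Hspa1a, Hspa1b and Hspa1l rose, and most other heat shock genes tested did not pass. Hspa1a was at 186, 183 and 395 CPM in hypoxia-lactate against 19.1, 22.6 and 19.5 CPM in normoxia-NaCl (log2 3.64 ± 0.37, edgeR adjusted p = 0.00062; 3.18 ± 0.27 without hypoxia-lactate 3). Hspa1b was at 153, 144 and 187 CPM against 11.7, 14.6 and 12.6 CPM (log2 3.64 ± 0.34, edgeR adjusted p = 0.00036), and Hspa1l at 28.7, 26.0 and 26.6 CPM against 4.20, 3.05 and 3.81 CPM (log2 2.88 ± 0.27, edgeR adjusted p = 0.00036). These 3 genes were called in all 12 leave-one-out fits. Hspa1a and Hspa1b are near-identical copies, so the split of reads between those 2 is uncertain. Of 18 tested heat shock proteins and their regulators, Hspa1a and Hspa1b were the 2 called, with and without hypoxia-lactate 3, and the median of the list was 0.14, or -0.012 without that library. Hspa8, the constitutive member, was at 613, 597 and 1158 CPM against 1618, 838 and 701 CPM (log2 -0.41 ± 0.32, edgeR adjusted p = 0.49; 0.04 without normoxia-NaCl 1), and Hsph1 at 58.5, 62.4 and 52.9 CPM against 53.8, 43.1 and 42.3 CPM (log2 0.32 ± 0.17, edgeR adjusted p = 0.31). Hspa4l, a relative of the same family, had log2 1.38 ± 0.22 (edgeR adjusted p = 0.0084), a call lost without normoxia-NaCl 3 (0.054).

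A group of transporters for osmolytes and cations, put together after their values were seen, rose in 5 of 11 tested genes, or 6 of 12 without hypoxia-lactate 3. The share over all tested genes was 1.17%, or 3.6% without that library. Fxyd2, the small regulatory subunit of the sodium pump, was at 631, 626 and 1021 CPM in hypoxia-lactate against 113, 85.7 and 60.4 CPM in normoxia-NaCl (log2 3.14 ± 0.42, edgeR adjusted p = 0.0032; 2.87 ± 0.39 without hypoxia-lactate 3), a call kept in all 12 leave-one-out fits. Slc6a12, a betaine and GABA transporter, was at 944, 1210.3 and 706 CPM against 179, 170.2 and 129.5 CPM (log2 2.58 ± 0.43, edgeR adjusted p = 0.011). Slc5a3, which takes up myo-inositol, was at 383, 382 and 157 CPM against 56.2, 105 and 81.0 CPM (log2 1.93 ± 0.41, edgeR adjusted p = 0.040). Each of these 3 genes was separate between groups, as were all 235 called genes. The Slc6a12 call was lost without any 1 normoxia-NaCl library (adjusted p of 0.056 to 0.067), that of the related transporter Slc6a13 (log2 2.68 ± 0.49) without normoxia-NaCl 3 (0.081), and those of Slc5a3 and Atp1b3 without most single libraries: Slc5a3 without hypoxia-lactate 1, normoxia-NaCl 1, 2 or 3, hypoxia-NaCl 1 or 2, or normoxia-lactate 1, 2 or 3 (0.057 to 0.177), and Atp1b3 without normoxia-NaCl 2 or 3 or any hypoxia-NaCl or normoxia-lactate library (0.057 to 0.128). The taurine transporter gene Slc6a6 was at 2329, 2190.1 and 3241 CPM against 1786, 2025 and 2579.9 CPM and was not called (log2 0.28 ± 0.22, edgeR adjusted p = 0.50; -0.03 without hypoxia-lactate 3 and normoxia-NaCl 1), and neither was Nfat5, the osmotic stress transcription factor (log2 0.56 ± 0.23, edgeR adjusted p = 0.19).

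Activation markers did not move as 1 class. Of 16 tested genes of alternative activation, none rose and 2 fell, with or without hypoxia-lactate 3. Falls made up 0.438% of all tested genes, or 3.26% without that library. Mrc1, the mannose receptor, was at 3.10, 5.89 and 1.25 CPM in hypoxia-lactate against 21.8, 26.5 and 21.9 CPM in normoxia-NaCl (log2 -2.76 ± 0.46, edgeR adjusted p = 0.012; -2.38 ± 0.32 without hypoxia-lactate 3 and -3.40 without hypoxia-lactate 2). Tgm2, a transglutaminase, was at 62.1, 51.4 and 60.2 CPM against 197, 149.8 and 148 CPM (log2 -1.51 ± 0.19, edgeR adjusted p = 0.0021). Both calls held in all 12 leave-one-out fits. Arg1, the arginase associated with this state, was at 0, 1.16 and 0.119 CPM in hypoxia-lactate and at 0 CPM in each normoxia-NaCl library, below the level needed for testing in the full fit. In the fit without hypoxia-lactate 3 it was tested and not called (edgeR adjusted p = 0.074).

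Of 23 tested pro-inflammatory genes 3 rose and none fell, and 7 rose without hypoxia-lactate 3. The share of all tested genes that rose also grew between these fits, from 1.17% to 3.6%. Il1b, the interleukin-1 beta gene, was at 5.44, 7.13 and 4.09 CPM in hypoxia-lactate against 0.823, 0.816 and 0.626 CPM in normoxia-NaCl (log2 2.88 ± 0.46, edgeR adjusted p = 0.0089), with a call lost without normoxia-NaCl 3 (adjusted p = 0.058). Saa3, an acute phase gene, and Tnfaip3, a brake on NF-kappaB signalling, had log2 of 1.97 ± 0.43 and 1.12 ± 0.24, with calls that were lost without most single libraries. For Saa3 these were all normoxia-NaCl, hypoxia-NaCl and normoxia-lactate libraries (0.060 to 0.139), and for Tnfaip3 the same except normoxia-NaCl 2 (0.068 to 0.139). Tnip3, a partner of Tnfaip3, was at 86.6, 84.5 and 86.1 CPM against 39.3, 34.9 and 27.8 CPM (log2 1.33 ± 0.19, edgeR adjusted p = 0.0041) and held in all 12 leave-one-out fits. Nos2, the inducible nitric oxide synthase gene, was at 6.16, 1.80 and 0.593 CPM against 0, 0.211 and 0 CPM. It missed the threshold with all libraries (edgeR adjusted p = 0.057) and passed without hypoxia-lactate 3 (edgeR adjusted p = 0.0066).

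Surface and lineage genes changed in both directions. Cx3cr1, the fractalkine receptor, was at 275, 234 and 386 CPM in hypoxia-lactate against 81.8, 87.5 and 50.5 CPM in normoxia-NaCl (log2 2.02 ± 0.28, edgeR adjusted p = 0.0040). The folate receptor genes Folr1 (log2 2.68 ± 0.37, edgeR adjusted p = 0.0040) and Folr2 (log2 1.42 ± 0.18, edgeR adjusted p = 0.0025) were higher as well, Folr2 with 178, 165 and 136 CPM against 65.1, 57.2 and 56.4 CPM. Cd33, an inhibitory Siglec that binds sialic acid, was at 3.99, 3.30 and 2.91 CPM against 16.6, 21.4 and 18.6 CPM (log2 -2.47 ± 0.29, edgeR adjusted p = 0.0019). Lgals9, a galectin, was at 9.46, 12.6 and 7.18 CPM against 45.6, 55.1 and 37.6 CPM (log2 -2.24 ± 0.27, edgeR adjusted p = 0.0020). Of 12 galectin and Siglec genes tested, none rose and 3 fell, where 0.438% of all tested genes fell. The third was Lgals3bp (log2 -1.10 ± 0.20, edgeR adjusted p = 0.017), whose call was lost without normoxia-NaCl 1 (0.062).

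Tyrobp, the adaptor that carries signals of many activating receptors, was at 434, 430.5 and 352 CPM in hypoxia-lactate against 1090.1, 737 and 870.3 CPM in normoxia-NaCl (log2 -1.15 ± 0.19, edgeR adjusted p = 0.0098). Rab3il1, which activates Rab proteins of vesicle traffic, was at 10.8, 10.7 and 18.2 CPM against 68.3, 49.2 and 60.4 CPM (log2 -2.17 ± 0.29, edgeR adjusted p = 0.0028). Hebp1, a heme-binding protein gene, was at 4.68, 4.61 and 3.92 CPM against 21.9, 14.1 and 20.4 CPM (log2 -2.09 ± 0.31, edgeR adjusted p = 0.0067), and Mcrip1 at 22.02, 20.4 and 15.9 CPM against 57.7, 47.6 and 55.0 CPM (log2 -1.46 ± 0.19, edgeR adjusted p = 0.0027). Like all 235 called genes, these 4 did not overlap between groups. All 4, with Cx3cr1, Folr1, Folr2, Cd33 and Lgals9, were called in every leave-one-out fit.

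**Figure D3:**
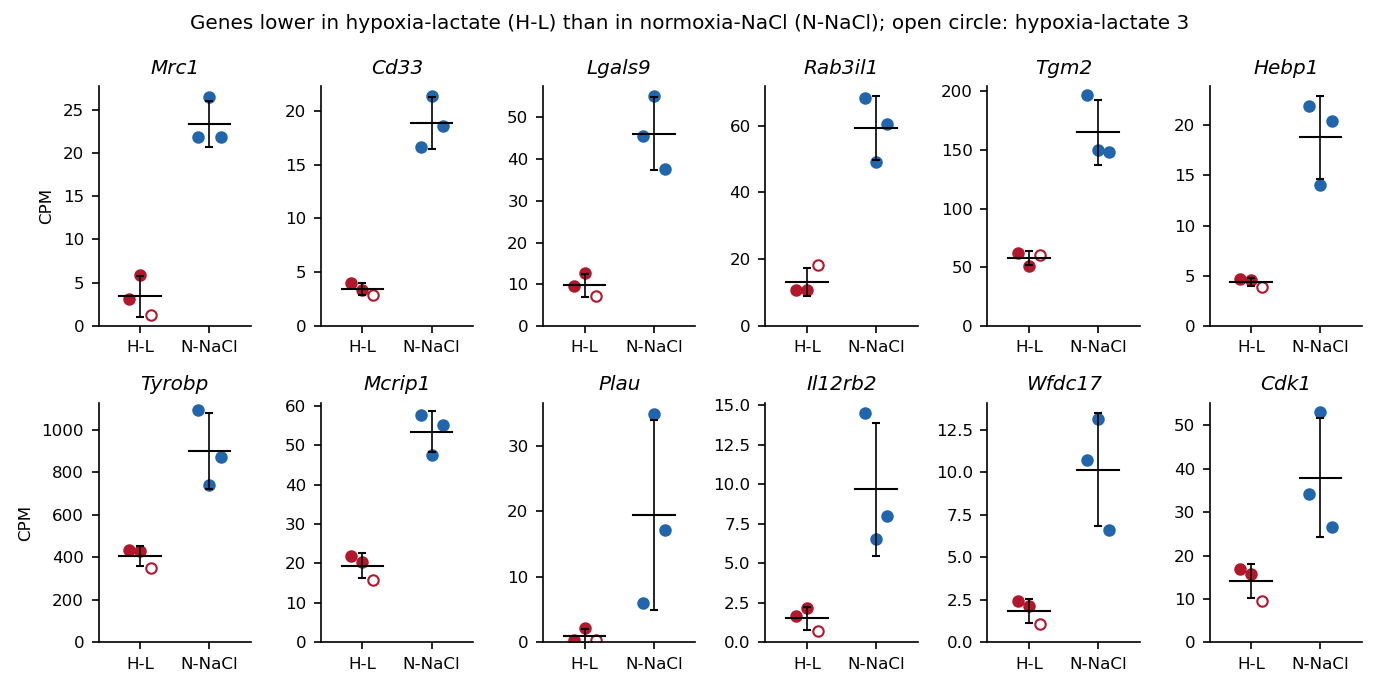
CPM per library (y axis, from 0) of 12 genes that were lower in hypoxia-lactate (red, left) than in normoxia-NaCl (blue, right), with the mean (horizontal bar) and SD (n = 3 each). The open circle is hypoxia-lactate 3. Cd33 lies between 2.91 and 3.99 CPM in hypoxia-lactate and between 16.6 and 21.4 CPM in normoxia-NaCl, while the normoxia-NaCl values of Plau spread between 6.08 and 34.9 CPM.

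Of the 20 macrophage identity genes Cx3cr1 and Cd14 rose and Tyrobp and Msr1 fell, and 3 rose and 5 fell without hypoxia-lactate 3. The median log2 fold change of the list was 0.12 with all libraries and -0.48 without hypoxia-lactate 3. Cd14, the lipopolysaccharide co-receptor, was at 1937, 1373 and 1505 CPM in hypoxia-lactate against 881, 596 and 522 CPM in normoxia-NaCl (log2 1.27 ± 0.24, edgeR adjusted p = 0.021), and missed the threshold without hypoxia-lactate 1 or normoxia-NaCl 2 or 3 (adjusted p of 0.053 to 0.101). Msr1, a scavenger receptor, had log2 -1.07 ± 0.24 (edgeR adjusted p = 0.049) and kept its call only when hypoxia-lactate 2 or hypoxia-lactate 3 was the library left out (0.062 to 0.161 in the other 10 fits). Mertk, the receptor for apoptotic cell uptake, was at 6.19, 7.77 and 16.0 CPM against 34.0, 23.8 and 30.9 CPM. It passed without hypoxia-lactate 3 (log2 -2.08 ± 0.32, edgeR adjusted p = 0.0031) and not with it (log2 -1.57 ± 0.39, edgeR adjusted p = 0.069).

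Genes of cell division stood lower in most members. Over all tested genes, 0.438% fell with all libraries and 3.26% without hypoxia-lactate 3. Of the mitosis genes tested, 18 lay lower without overlap between groups and none higher, against 11.2% and 9.39% of all tested genes. Of 26 tested mitosis genes 1 fell with all libraries and 7 without hypoxia-lactate 3, with medians of -1.18 and -0.89. Cdk1, the kinase that starts mitosis, was at 16.8, 15.9 and 9.55 CPM in hypoxia-lactate against 34.3, 53.1 and 26.6 CPM in normoxia-NaCl (log2 -1.43 ± 0.31, edgeR adjusted p = 0.040), and was called only in the full fit and in the fits without a hypoxia-lactate library (0.054 to 0.133 in the other 9). Of 27 DNA replication genes none passed with all libraries and 4 fell without hypoxia-lactate 3: Mcm4, Mcm5, Gins2 and Pole. Of 27 interferon-stimulated genes none passed with all libraries, and Oas3, Oasl2, Irf7 and Bst2 fell without hypoxia-lactate 3. Irf7, a regulator of interferon genes, was at 3.75, 2.89 and 6.29 CPM against 13.1, 13.1 and 8.53 CPM (log2 -1.79 ± 0.30, edgeR adjusted p = 0.0052 without hypoxia-lactate 3).

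For the mitochondrial lists that follow, the share of all tested genes called was 1.61% with all libraries and 6.86% without hypoxia-lactate 3. Of 23 tricarboxylic acid cycle genes, Idh2, the mitochondrial isocitrate dehydrogenase, fell, with 25.0, 17.9 and 21.4 CPM in hypoxia-lactate against 50.2, 46.1 and 42.9 CPM in normoxia-NaCl (log2 -1.11 ± 0.20, edgeR adjusted p = 0.019), a call lost without any 1 normoxia-NaCl library (adjusted p of 0.058 to 0.074). Without hypoxia-lactate 3, 1 gene of the list rose and 3 fell. None of 34 nuclear-encoded genes of oxidative phosphorylation passed with all libraries, and 1 rose and 2 fell without hypoxia-lactate 3. The median of the 13 mitochondrially encoded genes was -0.75 in the fit of 12. It was -0.28 once hypoxia-lactate 3, with the lowest mitochondrial share, was dropped, and 0.36 when normoxia-NaCl 1, with the highest share, was dropped as well. The part of these 2 libraries in the other mitochondrial values was not tested.

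**Figure D4:**
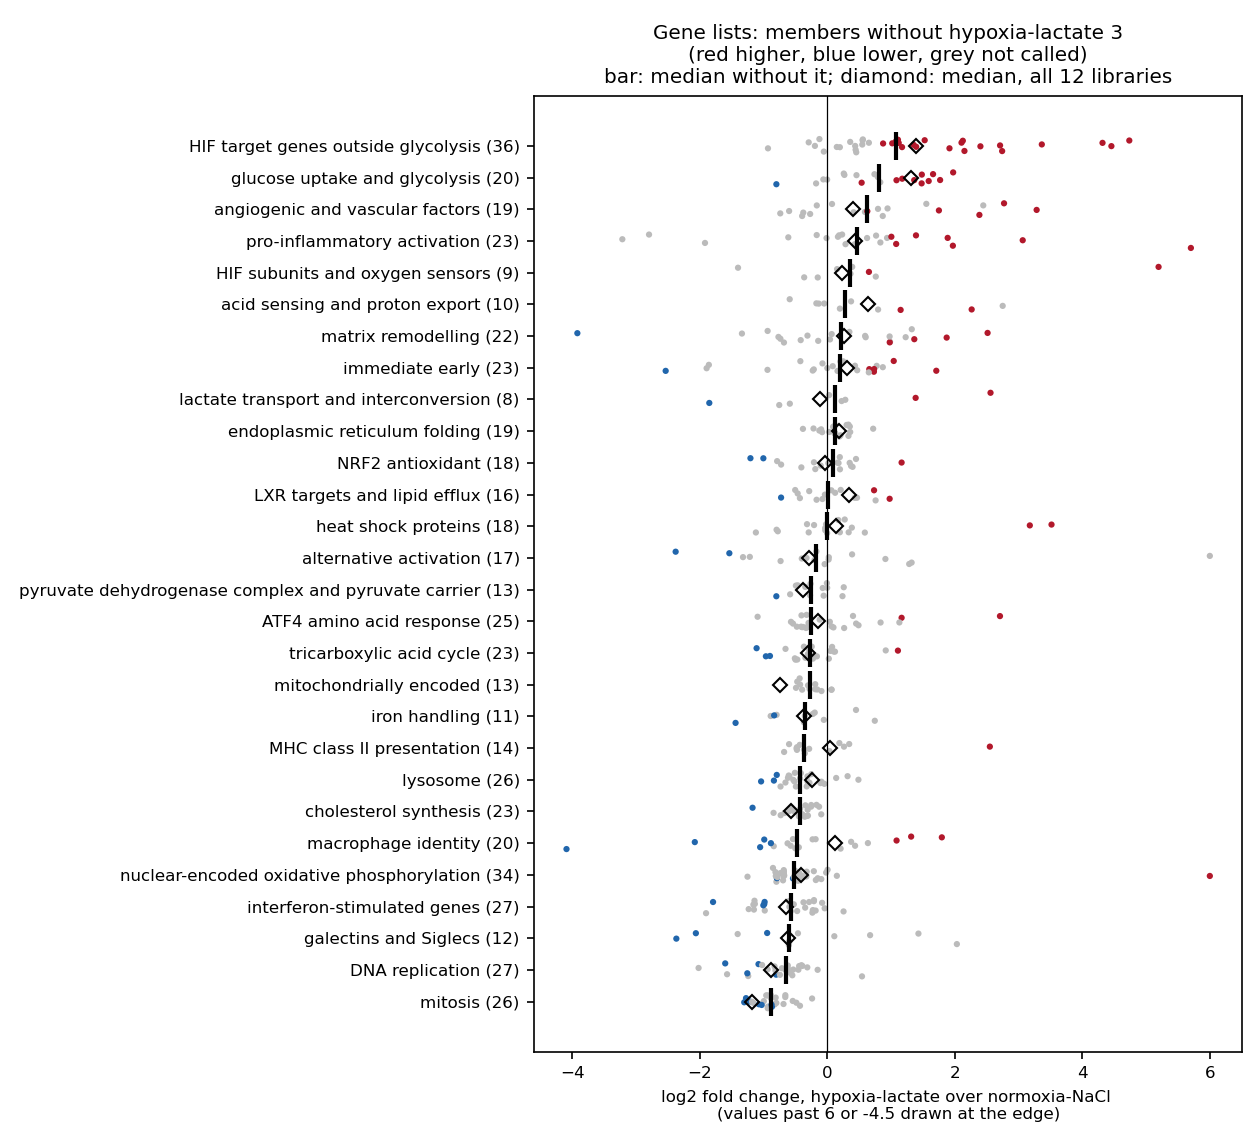
Log2 fold change of hypoxia-lactate over normoxia-NaCl (x axis) for the members of each gene list (rows, with the number of genes tested without hypoxia-lactate 3), in the fit without that library. Points are genes, red where called higher, blue where called lower and grey where not called. The bar is the list median in that fit (1.08 for HIF targets, -0.89 for mitosis) and the diamond the median in the fit of all 12 libraries (1.39 and -1.18).

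How far low oxygen and lactate together differed from each alone was tested within the same fit. Set against low oxygen alone (hypoxia-NaCl), hypoxia-lactate differed in no gene by edgeR (0 of 14616), although 1664 genes had an unadjusted p under 0.05. DESeq2 called 112 and limma-voom none. Without hypoxia-lactate 3, edgeR called 6 genes (0.0398%), among them Procr, the protein C receptor, and Layn, a hyaluronan receptor, as higher and Rab3il1, Mcrip1 and Cd33 as lower. Procr was at 149, 153 and 206 CPM in hypoxia-lactate against 80.8, 68.5 and 57.3 CPM in hypoxia-NaCl (log2 1.14 ± 0.17, edgeR adjusted p = 0.040 without hypoxia-lactate 3). Cd33 was at 3.99, 3.30 and 2.91 CPM against 11.1, 9.38 and 11.4 CPM (log2 -1.53 ± 0.23, edgeR adjusted p = 0.046 without hypoxia-lactate 3).

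Set against lactate alone (normoxia-lactate), hypoxia-lactate differed in 33 genes (0.226%), 29 higher (0.198%) and 4 lower (0.0274%), and in 130 without hypoxia-lactate 3 (0.862%). The calls dropped to 3, 12 and 8 when normoxia-lactate 1, 2 or 3 was left out, and were 50 without hypoxia-lactate 2 and 21 without hypoxia-NaCl 1 or 2. Egln3 was at 127, 142 and 118 CPM in hypoxia-lactate against 5.56, 7.90 and 5.09 CPM in normoxia-lactate (log2 4.38 ± 0.24, edgeR adjusted p = 3.5e-06). Slc2a1, Slc16a3, Vegfa, Pdk1, P4ha1, Pgk1 and Ero1l were also higher by this test, and Lgals9 was lower (log2 -1.47 ± 0.26, edgeR adjusted p = 0.046). The interaction, which asks whether both together differ from the sum of the single effects on the log2 scale, gave no call (0 of 14616 by edgeR; unadjusted, 497 genes were under 0.05; DESeq2 called 1 gene and limma-voom none). Without hypoxia-lactate 3 it again gave none, with 609 genes at an unadjusted p under 0.05.

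The single conditions share the normoxia-NaCl libraries with the combined one, so their values are only set side by side. Slc2a1 had log2 fold changes over normoxia-NaCl of 2.28 for both together, 1.90 for hypoxia-NaCl and 0.36 for normoxia-lactate, and Pdk1 had 2.29, 2.34 and 0.19. Hspa1b had 3.64, 2.32 and 2.20, with 153, 144 and 187 CPM in hypoxia-lactate, 76.2, 79.9 and 38.9 CPM in hypoxia-NaCl and 45.5, 89.2 and 44.8 CPM in normoxia-lactate. Fxyd2 had 3.14, 1.77 and 1.83, and Slc6a12 had 2.58, 1.44 and 1.45. Among the genes that fell, Mrc1 had -2.76, -1.25 and -0.97, Lgals9 -2.24, -0.88 and -0.77, and Rab3il1 -2.17, -0.83 and -0.94. For the 6 genes from Hspa1b to Rab3il1 each single condition lay between hypoxia-lactate and normoxia-NaCl in its mean level. This also held for Slc2a1 but not for Pdk1. The interaction terms of the 6 genes lay between -0.89 and -0.31 on the log2 scale, with edgeR adjusted p of 0.90 to 0.93. For Hspa1b, Fxyd2 and Slc6a12 a negative term is a smaller rise than the sum of the single effects. For Mrc1, Lgals9 and Rab3il1 it is a larger fall. None of these terms was called.

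**Figure D5:**
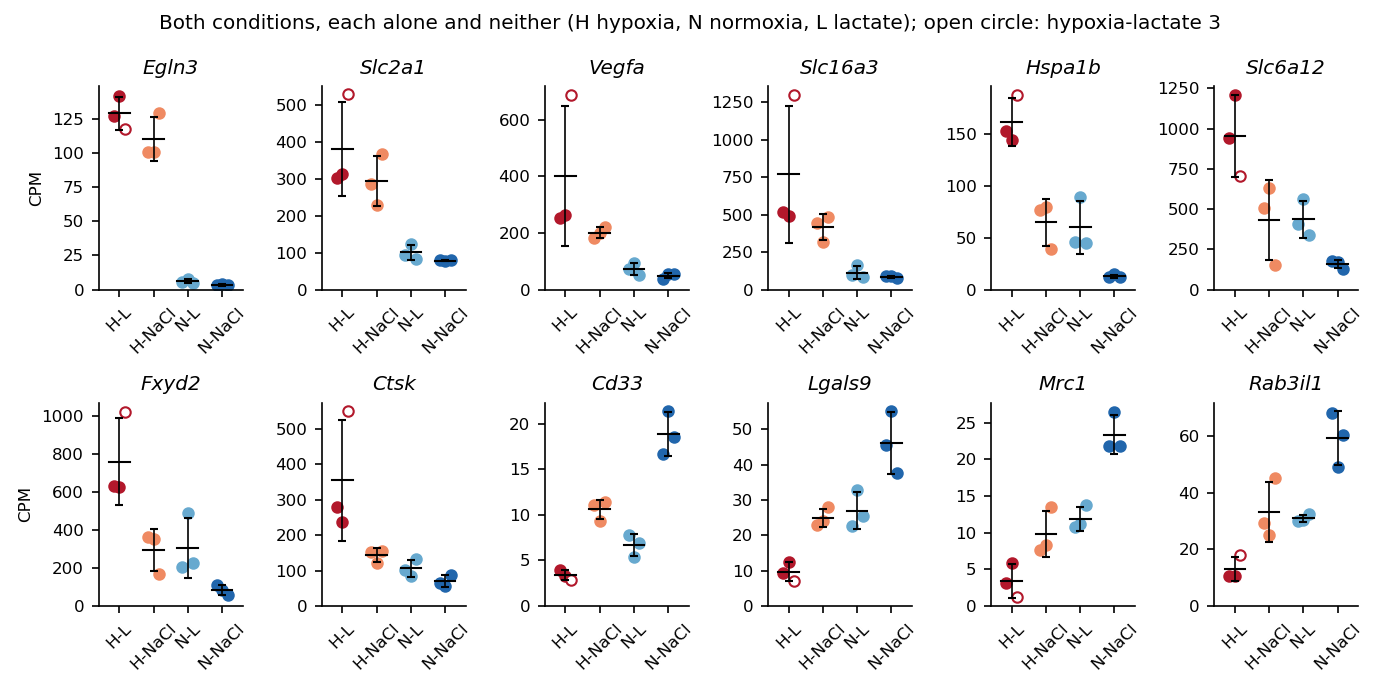
CPM per library (y axis, from 0) of 12 genes in hypoxia-lactate, hypoxia-NaCl, normoxia-lactate and normoxia-NaCl (left to right), with the mean (horizontal bar) and SD (n = 3 each), and hypoxia-lactate 3 as an open circle. Egln3 and Slc2a1 are high in both hypoxic groups. Their normoxia-lactate means (6.18 and 101 CPM) lie closer to normoxia-NaCl (3.66 and 78.7 CPM). Hspa1b, Fxyd2, Slc6a12, Lgals9, Mrc1 and Rab3il1 take middle mean values in both single conditions. So do Egln3, Slc2a1, Vegfa, Slc16a3 and Ctsk, so middle means are not particular to those genes.

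Among genes that passed only without hypoxia-lactate 3, 8 in each direction were named by the size of change. The rises included F13a1, a coagulation factor subunit, with 16.7, 32.0 and 4.92 CPM in hypoxia-lactate against 1.55, 4.50 and 0.821 CPM in normoxia-NaCl (log2 3.40 ± 0.68, edgeR adjusted p = 0.012 without that library). Il1r1, the interleukin-1 receptor, was at 19.6, 17.9 and 2.61 CPM against 1.42, 3.27 and 2.44 CPM (log2 2.96 ± 0.38, edgeR adjusted p = 0.00089 without it). The falls included C1qa, C1qb and the cyclin gene Ccnd1. C1qb, a chain of the first complement component, was at 148, 104 and 428 CPM against 605, 306 and 572 CPM, so that the third hypoxia-lactate library lay inside the normoxia-NaCl range (log2 -1.97 ± 0.36, edgeR adjusted p = 0.0080 without it, and -1.13 ± 0.47, adjusted p = 0.20, with it). Ccnd1, which drives entry into the cell cycle, was at 2.61, 2.81 and 0.178 CPM against 15.9, 20.6 and 9.19 CPM (log2 -2.49 ± 0.56, edgeR adjusted p = 0.021 without it). With all libraries none of these genes was called.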

How the data were processed

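Poly(A) RNA of mouse macrophages was sequenced on an Ion Proton after 16 cycles of PCR, per the labels' protocols. The deposited table holds raw read counts per Ensembl gene for 12 libraries, made by the authors with BWA and HTSeq on mm9, per the submitters' processing notes. The labels and processing notes give no annotation release, strand setting or tool version. The 5 counter rows were dropped, which left 37620 identifiers, and 32897 of these were given a symbol by identifier. Counts were fitted with edgeR 4.0.16 in R 4.3.3 (TMM scaling, filterByExpr, a mean for each of 4 groups, quasi-likelihood F test, Benjamini-Hochberg adjustment over all tested genes, threshold 0.05). CPM were computed with TMM-scaled library sizes, and the SE is the log2 fold change divided by the square root of F. An exact permutation test of 3 against 3 libraries cannot go below p = 0.1. DESeq2 1.42.0 and limma 3.58.1 (voom, quality weights), other scalings and filters, a replicate block and leaving out libraries were alternatives.

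Named genes were the 20 largest rises and falls among called genes of at least 5 CPM whose groups did not overlap, 8 each way called without hypoxia-lactate 3, up to 4 each way per list, up to 6 each way for the comparisons with the single conditions, and a few fixed ones, with unnamed transcripts skipped. Other genes, among them Folr2, Tnip3, Gapdh, Car9, Slc16a1, Hcar1, Hspa8, Hsph1 and the osmolyte group, were chosen after their values were seen. The comparison, its members and all gene lists were chosen with earlier results of these data known. Simulated counts of 14415 genes gave every gene and library the same coefficient of variation, the fitted 38.25%. On them the test recovered 64% of 4-fold and 3% of 2-fold changes, and called 5 of 14215 unchanged genes. Spread that differs between genes and an outlying library such as hypoxia-lactate 3 were not simulated, so these rates may not hold here. Replicates differed by more than sampling noise in every group, so each library was counted once.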

Additional observations from a re-analysis of the deposited data

How the results depend on the processing

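For both conditions together the count of 235 genes (171 higher, 64 lower) was 1450 (861 and 589) with DESeq2, 1078 (586 and 492) with limma's quality weights, 912 (481 and 431) without hypoxia-lactate 3 and normoxia-NaCl 1, and 6 (6 and 0) with only the 6 libraries compared, where 177 genes (137 and 40) passed without hypoxia-lactate 3. Leaving out 1 library gave 67 to 1035 genes, 49 to 543 higher and 15 to 492 lower. Against hypoxia-NaCl the count of 0 was 112 with DESeq2, 16 with quality weights, 11 without both libraries and 3 with only the groups compared and without hypoxia-lactate 3, and 0 to 6 on leaving out 1 library. Against normoxia-lactate the count of 33 was 437 with DESeq2, 737 with quality weights, 380 without both libraries, 3 with only the groups compared, 205 with these and without hypoxia-lactate 3, and 3 to 130 on leaving out 1 library. The interaction gave 1 gene with DESeq2 and 2 with quality weights. The cause of these differences was not tested. The fit of 2 groups holds fewer libraries by construction.

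The labels do not say whether the replicate numbers pair the libraries, and the main fit did not pair them. Deviations of same-numbered hypoxia-lactate and normoxia-NaCl libraries correlated at -0.0752, 0.366 and 0.0888, which does not settle it. With a replicate block 335 genes passed (222 higher and 113 lower), 216 of them shared with the 235. With the replicate block and without hypoxia-lactate 3, 2116 passed (1015 and 1101), and 16 and 261 against hypoxia-NaCl and normoxia-lactate.

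The sign of 4 named genes turned in fits where they passed the threshold. Akr1b3, Gapdh, Hspa8, Ndufa4 and Slc6a6 also crossed 0, without a call in the fits that turned their sign. Nptx1 (0.08 on the log2 scale) was -2.12 without hypoxia-lactate 3, also in the fit of only the groups compared, -2.11 with quality weights, -2.07 with the replicate block and without that library, and -2.34 without both libraries; on leaving out 1 library it ran between -2.12 and 0.57. Cdc20 (1.05) was -1.07, -1.04 with quality weights, -1.22 with the block and -1.19 without both, and between -1.07 and 1.53 on leaving out 1 library. Mvk (0.26) was -1.17 and -1.34 with the block (up to 0.67 on leaving out 1 library), and Fh1 (0.99) was -0.90 and -0.91 with the block (up to 1.44). A library with few detected genes, hypoxia-lactate 3, limits what can be seen of genes of low level.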
